A study of Mus musculus with 2 samples.

Results

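The mitochondrial ribosome, or mitoribosome, translates the few messenger RNAs encoded in mitochondrial DNA, and all of its proteins are made from nuclear genes. The genes described here are those whose symbol starts with Mrpl (large subunit) or Mrps (small subunit) followed by a number and at most 1 letter, and that have at least 1 protein-coding transcript in the annotation. This rule used names only and no measured value. It gave 78 genes of the 55536 gene rows measured, and no filter on expression was applied. The RNA came from the nucleoplasmic fraction of primary bone marrow-derived macrophages of the inbred mouse strain C57BL/6J, with ribosomal RNA depleted before sequencing.

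All samples belong to 1 group, with 2 libraries named biological replicates 1 and 2 in the labels. Lipid A, the part of bacterial lipopolysaccharide that Toll-like receptor 4 recognises, was given at 100 ng/ml for 12 h, removed for 12 h, and a further 30 min at 100 ng/ml preceded harvest. The labels state no modified allele, and age and sex were not collected. Starting RNA was 1 µg for replicate 1 and 500 ng for replicate 2. The replicates have separate biosamples but a shared donor identifier, and no source names separate mice or cultures. The spread between them may therefore be technical in part. No untreated or singly treated library is part of the data, so a level cannot be related to Lipid A, and no p-value is given.

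Replicate 1 held 23846021 gene counts and replicate 2 held 20675305. The values are expected counts, which are estimates that share ambiguous reads among genes. A count of 0 then allows a level of up to 3 counts, or 0.126 and 0.145 CPM. The 8 macrophage markers all reached 1 TPM (a level per transcript length, scaled to a fixed total per library) in both libraries, with a median of 166 and 256 TPM. Of 28 markers of 7 other cell types, 8 were at 0 counts in both libraries and 1, the endothelial gene Kdr, reached 1 TPM in both. Mitochondrial messenger RNAs held 2.81% of counts in replicate 1 (exact 95% interval 2.81% to 2.82%) and 6.85% in replicate 2 (6.83% to 6.86%). For the count ratios given below, scaling without mitochondrial and small noncoding genes left the median at 0.08 on the log2 scale and changed the sign of 0 of 32 named genes. The part of this difference in the TPM comparisons was not tested.

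Mitoribosomal proteins fall into those with a counterpart in the bacterial ribosome and those found in mitochondria only. The ribosome is assembled in the mitochondrial matrix on 2 ribosomal RNAs of the mitochondrial genome, and it makes core subunits of the respiratory chain. Its nuclear genes are housekeeping genes, and promoters of genes for mitochondrial proteins are known for binding sites of nuclear respiratory factor 1 (NRF1), of the ETS family factor GABP and of YY1. RNA of the nucleoplasm holds newly made and incompletely spliced transcripts beside finished messenger RNA.

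The promoters carried these motifs more often than the average gene. RefSeq promoter entries on build GRCm38.p6, which cover 250 bases before to 50 after a start, were found for 69 of the 78 genes. Entries for Mrpl13, Mrpl15, Mrpl19, Mrpl38, Mrpl4, Mrpl54, Mrps28, Mrps34 and Mrps35 were not matched. The NRF1 core GCANGCGC, searched on both strands, was present in 22 of 69 genes (31.9%), against 10.8% of 27025 genes of the table and 22.8% of the 7422 nuclear protein-coding genes at 1 TPM or more in both libraries. The ETS core CCGGAAG was present in 26 (37.7%, against 9.93% and 23.5%). The YY1 core AAGATGGC was present in 12 (17.4%, against 3.19% and 6.16%). In all, 45 genes had at least 1 of the 3 motifs, 10 had both NRF1 and ETS, 24 had none and 0 had all 3. These combinations were not counted over other genes, so they describe the 69 genes only.

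The other 4 motifs were not more frequent than in expressed genes. A GC box (GGGCGG) was found in 49.3% of the genes, between the 38.2% of all genes and the 69.7% of expressed genes. A CCAAT box (CCAAT) was in 39.1%, against 41.1% of all and 42.8% of expressed genes. A TATA box (TATAAA) was in 7.25%, against 15.7% and 8.29%. The cyclic AMP element TGACGTCA was in 2.90%, against 2.03% and 3.87%. The median GC content of the entries was 58.3%, between the 52.7% of all genes and the 61.0% of expressed genes. A match is a description of letters and does not show that a factor bound there in these cells.

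**Figure D1:**
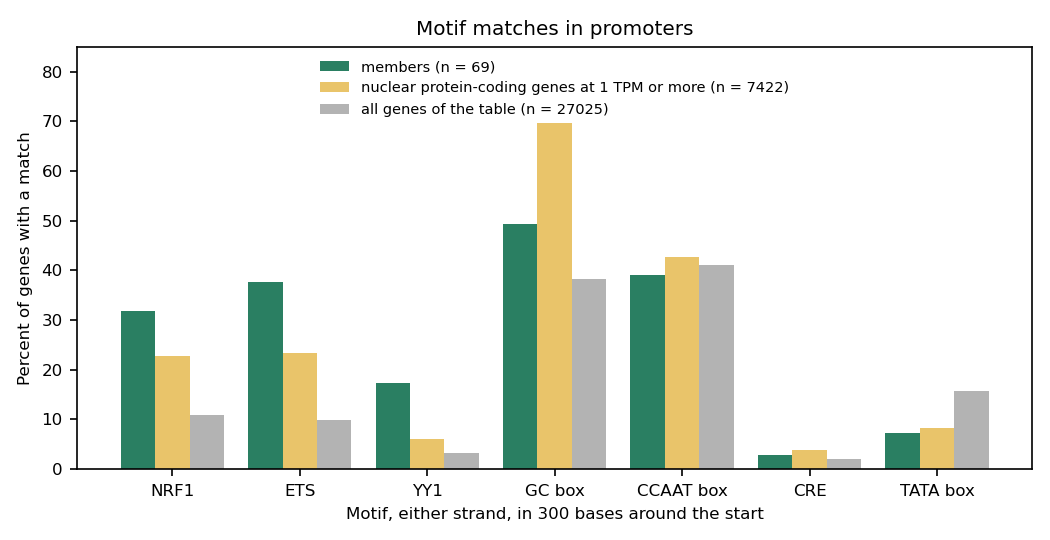
Percent of genes (vertical axis) whose promoter entry holds each motif (horizontal axis), for the 69 mitoribosomal protein genes, for 7422 expressed nuclear protein-coding genes and for all 27025 genes of the table. The bars for NRF1, ETS and YY1 are higher in the first group, at 31.9%, 37.7% and 17.4%, and the bar for the GC box (49.3%) lies between those of all and of expressed genes.

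The windows below show how the NRF1 core sits in 6 of these genes. They are examples, picked after the matches were seen, from the genes whose match lies wholly before the start that RefSeq and GENCODE give. Each is read on the strand of the gene, 5′ to 3′, with the match to the NRF1 core, in either orientation, in capitals. The match begins 134 bases before the RefSeq start in Mrpl10, 81 in Mrpl12, 47 in Mrpl17, 33 in Mrpl44, 163 in Mrpl52 and 91 in Mrps21.
Mrpl10 (chr11:97041433-97041470, + strand): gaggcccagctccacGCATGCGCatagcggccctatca
Mrpl12 (chr11:120484541-120484578, + strand): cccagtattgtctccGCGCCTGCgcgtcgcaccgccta
Mrpl17 (chr7:105811112-105811149, - strand): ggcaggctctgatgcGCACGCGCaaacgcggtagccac
Mrpl44 (chr1:79775970-79776007, + strand): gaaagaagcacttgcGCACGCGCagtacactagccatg
Mrpl52 (chr14:54426731-54426768, + strand): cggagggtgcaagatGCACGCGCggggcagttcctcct
Mrps21 (chr3:95871583-95871620, - strand): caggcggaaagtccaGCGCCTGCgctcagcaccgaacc

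The form with T at the free base, GCATGCGC, is 1 part of the matches to the core, and Mrpl10 shows it here. It was in 8 of 69 genes (11.6%), against 3.05% of all genes and 6.72% of expressed genes. Of all 33 matches in the 69 genes, 20 began within the 100 bases before the start. Matches on the letters of both strands that overlap were counted separately. Genes with an NRF1 match had a median level of 3.43 TPM in replicate 1 and 3.95 in replicate 2 (22 genes), and those without had 2.94 and 4.10 (47 genes), so their order differed between the libraries.

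Many of these genes start back to back with another gene. For 18 of 78 (23.1%), a protein-coding gene on the opposite strand starts within 1000 bases before their own start, against 6.77% of all 22028 protein-coding genes and 11.3% of the 9207 nuclear ones at 1 TPM or more in both libraries. The distance between the starts had a median of 82 bases and ran from 26 to 935. Of the 18 partners, 13 reached 1 TPM in both libraries, 8 lay above the mitoribosomal gene in both and 9 below it in both.

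The stretch between the annotated starts is shown for 4 such pairs whose partner also works in translation, protein turnover or mitochondria. NRF1, ETS or YY1 cores are in capitals, and only the last of the 4 stretches holds one. The promoter entries searched above reach beyond these stretches. In the entry of Mrpl32, NRF1 matches begin 87, 85, 66 and 22 bases before the RefSeq start, outside the stretch shown. The entries of Mrps12, Mrpl49 and Mrps27 hold a YY1 match outside theirs.
Mrps12 and Sars2 (chr7:28741821-28741991, - strand): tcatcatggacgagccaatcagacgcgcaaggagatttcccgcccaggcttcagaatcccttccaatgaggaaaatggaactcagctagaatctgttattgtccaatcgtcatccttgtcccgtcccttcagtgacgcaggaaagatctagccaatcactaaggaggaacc
Mrpl32 and Psma2 (chr13:14613166-14613239, - strand): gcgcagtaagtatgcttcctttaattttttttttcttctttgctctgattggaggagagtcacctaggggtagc
Mrpl49 and Fau (chr19:6057786-6057843, - strand): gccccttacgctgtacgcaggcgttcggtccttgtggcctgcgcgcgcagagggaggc
Mrps27 and Ptcd2 (chr13:99344706-99344785, + strand): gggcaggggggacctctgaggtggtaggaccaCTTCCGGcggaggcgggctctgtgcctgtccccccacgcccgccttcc

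Across these short gaps the levels of the neighbours could differ widely. Fau, which encodes a cytosolic ribosomal protein fused to a ubiquitin-like protein, was at 70.2 and 128 TPM in replicates 1 and 2, beside 2.61 and 2.94 TPM of Mrpl49. Sars2, the mitochondrial seryl-tRNA synthetase, was at 1.96 and 1.63 TPM beside 4.46 and 10.2 TPM of Mrps12, a protein of the decoding centre. Psma2, a subunit of the proteasome, was at 4.56 and 7.99 TPM, close to the 3.65 and 5.86 TPM of Mrpl32. Ptcd2, a pentatricopeptide repeat protein of mitochondria, was at 3.46 and 4.10 TPM beside 1.64 and 1.81 TPM of Mrps27. The neighbour was thus far above, below or near the mitoribosomal gene, in the same order in both libraries.

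Nearly all of the 78 genes were detected, most at a level between 1 and 10 TPM. The median was 3.15 TPM in replicate 1 (range 0.30 to 38.8) and 4.07 TPM in replicate 2 (range 0.45 to 48.1). It sat at the 50.4th and 50.6th percentile of protein-coding genes above 0. Nuclear protein-coding genes that reached 1 TPM in both libraries had higher medians, 6.95 and 8.36 TPM. In both libraries 74 of 78 (94.9%) reached 1 TPM, against 41.8% of the 22015 nuclear protein-coding genes. In the read-based table, a separate quantification from the reads, 64 did. Between 1 and 10 TPM in both libraries lay 64 genes, and 6 were at 10 TPM or more in both. Counts were modest, with a median of 110 and 99.5 and a lowest value of 20 and 7. In a bulk sample, fewer cells with a transcript and less RNA per cell cannot be told apart.

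**Figure D2:**
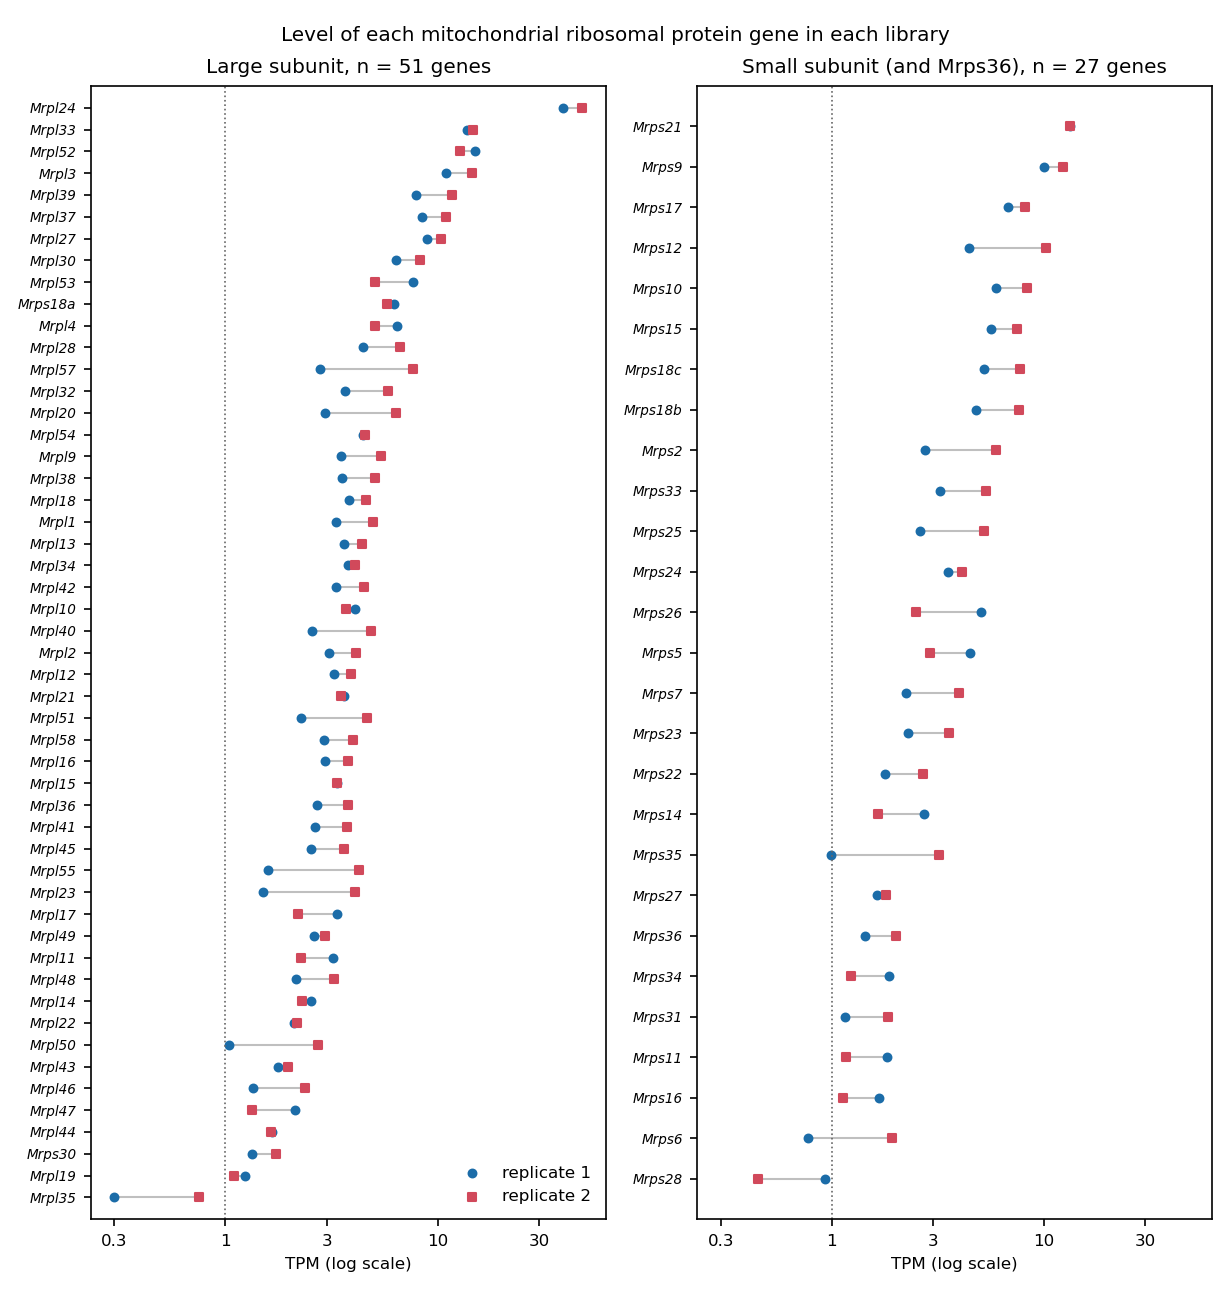
Level in TPM (log scale) of each mitoribosomal protein gene in replicate 1 (circles) and replicate 2 (squares), with the large subunit on the left and the small subunit with Mrps36 on the right, ordered by mean. Mrpl24 stands apart at the top with 38.8 and 48.1 TPM, and most genes lie between 1 and 10 TPM.

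Among large-subunit proteins with a bacterial counterpart, Mrpl24 had the highest level of all members. Mrpl24 (chr3:87919506-87923672 on mm10, + strand) was at 38.8 TPM in replicate 1 and 48.1 in replicate 2 (mean 43.4 ± 6.58, SD, n = 2), with 1294 and 1081 expected counts. It held 11.5% and 11.4% of the summed TPM of the 78 genes. Its exons overlap those of Rrnad1 on the opposite strand (550 and 342 counts, 6.83 and 5.28 TPM), and no source states whether strand was used in counting, so reads of either gene could be assigned to the other. The next highest values were 14.98 TPM (Mrpl52) in replicate 1 and 14.7 TPM (Mrpl33) in replicate 2.

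Mrpl33 was at 13.8 and 14.7 TPM, and Mrpl3, which lies near the peptidyl transferase centre, at 10.9 and 14.6 TPM. Both overlap another gene with counts, Rbks on the opposite strand for Mrpl33 and the unclassified record Gm38077 on the same strand for Mrpl3. At the other end of the same class were Mrpl19 with 1.23 and 1.10 TPM and Mrpl35 with 0.30 and 0.75 TPM. Mrpl35 was the lowest gene in replicate 1 and below 1 TPM in both libraries, from 40 and 67 counts. That low level depended on the table, since the read-based one gave Mrpl35 1.07 and 1.89 TPM, from 420 and 399 estimated counts, and its log2 ratio of replicate 2 over replicate 1 was -0.11 there against 0.93. Mrpl12, which forms the stalk of the large subunit and also binds the mitochondrial RNA polymerase, was near the median with 3.24 and 3.91 TPM.

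Large-subunit proteins found in mitochondria only reached 14.98 TPM. Mrpl52 was at 14.98 and 12.7 TPM, Mrpl39 at 7.92 and 11.7 TPM, and Mrpl37 at 8.47 and 11.0 TPM. These 3 and Mrpl53 (7.62 and 5.07 TPM) stood above Mrps30 (1.34 and 1.73 TPM), which is part of the large subunit despite its symbol. Mrpl58, a peptidyl-tRNA hydrolase that can release stalled chains and is built into the large subunit, was at 2.90 and 4.0 TPM.

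In the small subunit, Mrps21 and Mrps9 led, both with bacterial counterparts. Mrps21 was at 13.3 and 13.2 TPM and Mrps9 at 10.03 and 12.3 TPM. The lowest were Mrps28 with 0.93 and 0.45 TPM from 20 and 7 counts, Mrps6 with 0.77 and 1.92, Mrps16 with 1.67 and 1.13, Mrps11 with 1.83 and 1.17, and Mrps31 with 1.16 and 1.85 TPM. In this alignment-based table, Mrps28 and Mrpl35 were below 1 TPM in both libraries, and Mrps6 and Mrps35 in 1. The order of the lowest genes was not the same in the libraries, since Mrps28, Mrps16 and Mrps11 were lower in replicate 2 and Mrps6 and Mrps31 lower in replicate 1. Mrps11 overlaps Mrpl46 on the opposite strand at their exons, and Mrps6 overlaps Slc5a3 on the same strand.

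The 3 homologs of the bacterial small-subunit protein S18 had similar levels although they sit in different places. Mrps18a, which is part of the large subunit, was at 6.22 and 5.77 TPM. Mrps18b was at 4.77 and 7.65 TPM and Mrps18c at 5.25 and 7.75 TPM, both in the small subunit. The ranges of the 3 genes over the libraries overlapped. Mrps36, now known as a subunit of the 2-oxoglutarate dehydrogenase complex rather than of the ribosome, was at 1.44 and 2.00 TPM. Its level depended on the table, with a mean of 1.72 TPM here and 4.11 TPM in the read-based table.

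The rule for named genes (extremes of level, ratio or coding share, and genes of known role) left 46 genes outside it. Their place in the middle of the range follows from the rule, which takes out the 8 highest and 8 lowest by mean TPM. They were at 0.99 to 8.90 TPM in replicate 1 (median 2.95) and at 1.23 to 10.4 TPM in replicate 2 (median 4.03). The highest of them by mean was Mrpl27, at 8.90 and 10.4 TPM. Mrps17 followed at 6.75 and 8.19 TPM, and Mrps12 at 4.46 and 10.2 TPM. Scaled counts of 31 of the 46 were higher in replicate 2, and the same share over all genes was not counted. The 78 genes spanned a median of 7899.5 bases from start to end, against 24486 for nuclear protein-coding genes that reached 1 TPM in both libraries.

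Grouped by subunit, the median levels lay close to each other. The 51 large-subunit genes had a median of 3.24 and 4.11 TPM and the 26 small-subunit genes 2.74 and 3.78 TPM. The large minus small difference of median log2(TPM + 0.1) was 0.23 and 0.12. Without the 32 genes that overlap another gene with a mean count of 10 or more, the mean difference of the libraries turned from 0.18 to -0.10. Genes with a bacterial counterpart (45) had 3.50 and 4.10 TPM, and those found in mitochondria only (30) had 2.58 and 3.69 TPM.

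Other genes needed for mitochondrial translation lay in the same range, and transcripts of cytosolic ribosomal proteins and of mitochondrial DNA lay far above it. The 5 mitoribosomal proteins with other symbols had a median of 4.47 and 5.19 TPM, led by Dap3, a GTP-binding protein of the small subunit, with 18.98 and 13.98 TPM, and Ptcd3 with 7.16 and 9.72. The 11 translation factors had 4.36 and 5.55 TPM, led by the ribosome recycling factor Gfm2 (11.9 and 11.9 TPM) and the initiation factor Mtif2 (9.32 and 9.09). The 20 mitochondrial tRNA synthetase and amidotransferase genes had 2.28 and 3.0 TPM, with Cars2 (13.2 and 10.6) and Fars2 (10.1 and 8.93) highest by mean. The 21 assembly and rRNA modification genes had 2.89 and 2.84 TPM, with Mterf3 (13.9 and 24.9) and Malsu1 (16.6 and 20.4) highest by mean. The highest value of this list in replicate 1 was 17.1 TPM, in another gene. Thus all these lists had medians between 2 and 6 TPM in both libraries.

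The 9 genes of mitochondrial transcription and RNA processing had 2.33 and 2.77 TPM, led by Lrpprc (6.71 and 7.95) and Polrmt (5.0 and 7.80), the mitochondrial RNA polymerase. The 37 nuclear subunits of complex I, the first enzyme of the respiratory chain, had 5.42 and 7.70 TPM. Ndufa3 (10.9 and 33.0) and Ndufs1 (16.5 and 19.3) were highest by mean. The 81 cytosolic ribosomal protein genes had 24.3 and 31.4 TPM, led by mean by Rps24 (91.8 and 265) and Rpl41 (96.5 and 160). Only Mrpl24 among the mitoribosomal genes lay above the median of the cytosolic ones in either library.

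The mitochondrial ribosomal RNAs that these proteins bind were at 373 and 305 TPM for mt-Rnr1 (small subunit) and 228 and 174 TPM for mt-Rnr2 (large subunit). The libraries were depleted of ribosomal RNA, and how much of these was removed was not tested. The 13 mitochondrial messenger RNAs that the ribosome translates had a median of 997 and 4368 TPM. By mean, mt-Atp8 (3693 and 31583) and mt-Co1 (8023 and 17934) were highest, with mt-Co1 first in replicate 1 and mt-Atp8 in replicate 2. These transcripts are made in mitochondria, not in the nucleus, yet were abundant in the fraction called nucleoplasmic.

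**Figure D3:**
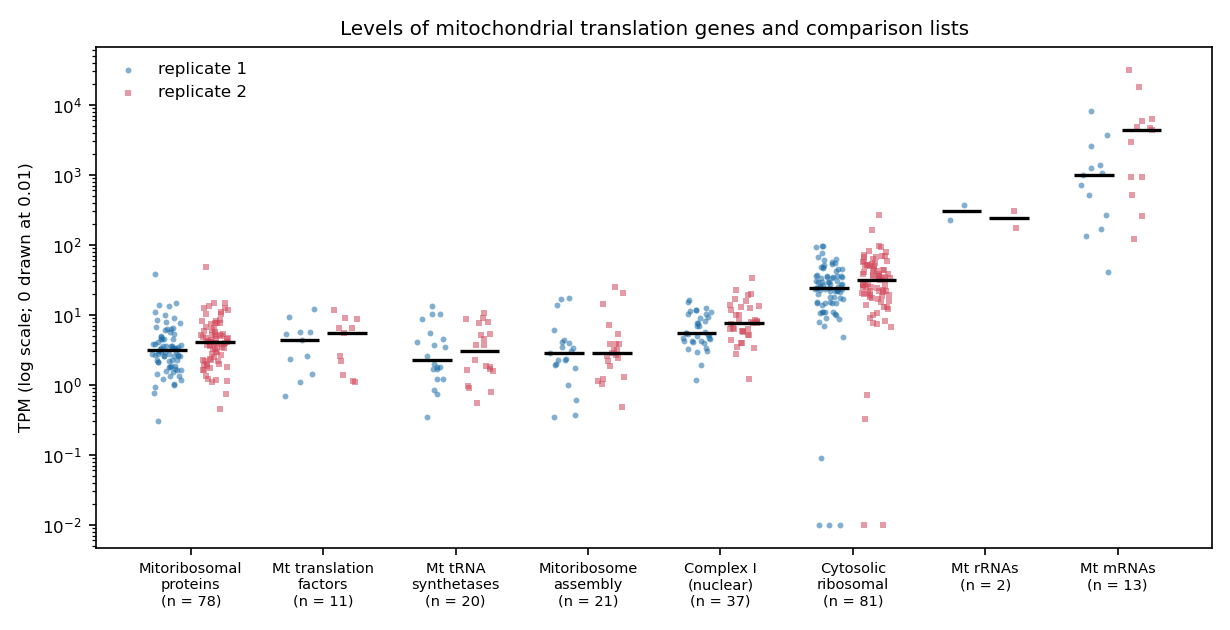
Level in TPM (log scale, 0 drawn at 0.01) of each gene in the mitoribosomal set and 7 comparison lists, in replicate 1 (circles) and replicate 2 (squares), with a bar at each median. The mitoribosomal medians of 3.15 and 4.07 lie near those of the other nuclear genes of mitochondrial translation and below the 24.3 and 31.4 of cytosolic ribosomal proteins.

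Between the 2 libraries the genes as a group differed little. The ratio of counts, replicate 2 over replicate 1 after TMM scaling, which sets the bulk of genes equal, had a median of 0.08 on the log2 scale over the 78 genes, against 0.00 over the 15041 genes whose counts averaged at least 10, and 0.03 over 11637 nuclear protein-coding ones. It was above 0 in 47 genes and below 0 in 31. In TPM the median log2 ratio was 0.36, against 0.26 for expressed nuclear protein-coding genes, and 58 of 78 genes were higher in replicate 2. Nuclear protein-coding genes held 18.3% of all TPM in replicate 1 and 21.9% in replicate 2. The share of all genes with a ratio above 0 was not counted, by scaled counts or by TPM. With 1 library on each side, these ratios have no replicate check. Mitochondrial messenger RNAs, by contrast, had a median log2 ratio of 1.54, with 10 of 13 more than 2-fold higher in replicate 2, and the ribosomal RNAs mt-Rnr1 and mt-Rnr2 had -0.55 and -0.67.

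At a mean count of 100 or more, which 40 of the genes reached, 1 was more than 2-fold higher in replicate 2 and 1 more than 2-fold lower (2.5% each). Of 9673 genes at that count, 1.67% were as much higher and 1.82% as much lower, so the counts for the mitoribosomal genes are near the background. Mrpl50, found in mitochondria only, had 76 counts in replicate 1 and 143 in replicate 2, which is a log2 ratio of 1.10 (interval from counting at 95%: 0.70 to 1.53), and 1.04 and 2.72 TPM. Mrps26, also found in mitochondria only, had 185 and 77 counts, or -1.06 on the log2 scale (-1.47 to -0.68), and 5.04 and 2.49 TPM. With read-based counts Mrpl50 stayed beyond 2-fold (1.20), and Mrps26 did not (-0.63, and -0.99 by TPM). These intervals cover counting error only.

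The next largest count ratios lay within 2-fold. Higher in replicate 2 were Mrps2 with 214 and 321 counts (log2 ratio 0.78), Mrps18b with 111 and 145 (0.59), Mrpl39 with 387 and 503 (0.57) and Mrpl1 with 262 and 313 (0.45). Lower were Mrpl53 with 138 and 67.5 counts (-0.83), Mrpl4 with 309 and 175 (-0.62), Mrpl52 with 177 and 103 (-0.58) and Mrpl10 with 234 and 153 (-0.41). The 4 higher genes come from both subunits. The 4 lower ones come from the large subunit, but Mrps26, lowered most at this count, is of the small one. The median log2 ratio was 0.09 in both the large and the small subunit. By TPM, Mrps2 was beyond 2-fold (2.76 and 5.98 TPM, log2 ratio 1.09), and so was Mrpl51 (1.00), beside Mrpl50 (1.31). Mrpl53 overlaps Gm42688 on the same strand at its exons, which also had fewer counts in replicate 2 (290 and 151).

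The counting interval lay above 0 for 20 of 78 genes (25.6%) and below 0 for 10 (12.8%). Among 11424 genes within the same range of mean counts, it lay above 0 for 23.3% and below 0 for 23.5%. The share above 0 was near that of these 11424 genes, and the share below 0 was smaller. They match the mitoribosomal genes in the range of counts only, not in how counts are spread within it. Intervals narrow as counts rise, so the shares are not fully comparable. The 38 genes with a mean count under 100 held 4 more beyond 2-fold, Mrps12 and Mrpl55 higher in replicate 2 and Mrps11 and Mrps28 lower, which is 5.26% each way. Of 5368 genes with a mean count of 10 to under 100, 7.13% were as much higher and 11% as much lower. With read-based counts only Mrps12 of the 4 stayed beyond 2-fold (log2 ratio 1.04), while Mrpl55 had 0.42, Mrps11 had -0.69 and Mrps28 had -0.60. Mrps11 had 52 and 22 counts while Mrpl46, which overlaps it, had 46 and 56. Across the 78 genes, the TPM of the libraries had a Spearman correlation of 0.81, which describes genes that share libraries and lengths.

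**Figure D4:**
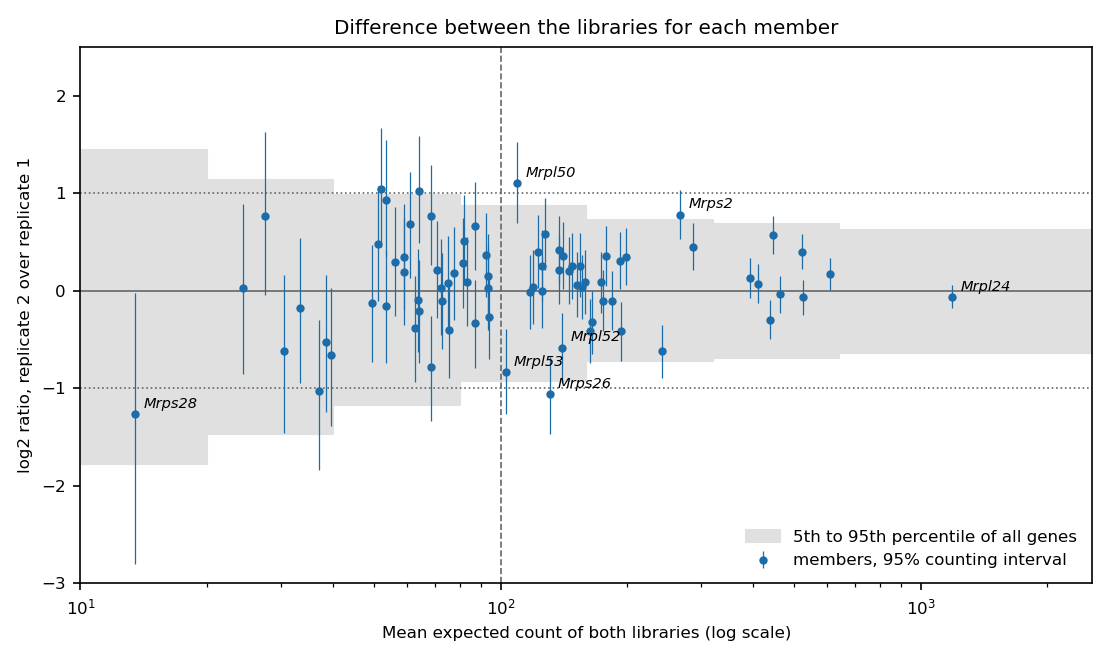
Log2 ratio of replicate 2 over replicate 1 (vertical axis) against the mean expected count (horizontal axis, log scale) of each mitoribosomal gene, with 95% counting intervals, over the 5th to 95th percentile of all genes in bins of count (grey). Dotted lines mark 2-fold and the dashed line a mean count of 100, to the right of which only Mrpl50 (1.10) and Mrps26 (-1.06) lie beyond 2-fold.

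Most of these genes were led by a coding transcript. Of the 74 genes that reached 1 TPM in both libraries, this held for 60 in replicate 1 and 59 in replicate 2. In the read-based table it held for 55 and 52 of the 74. The same share over other genes was not counted, so these numbers describe the 74 genes only. The 78 genes have 343 annotated transcripts, of which 170 are protein-coding and 88 are of the retained-intron class, and 48 genes have at least 1 of that class. Over the same 74 genes, a median of 76.7% of TPM in replicate 1 and 82.2% in replicate 2 was in protein-coding transcripts. The same measure over 9207 nuclear protein-coding genes gave 75.7% and 81.1%, so by this median the mitoribosomal genes were near all expressed genes. Less than 50% was in coding transcripts for 19 and 18 of the 74 genes. For the 9207 genes this held for 1861 and 1674 (20.2% and 18.2%), a smaller share in each library. In both libraries it held for 15 of the 74, which was not counted over the 9207 genes. The read-based table gave 29 and 26 of the 74.

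Mrps26 had the lowest mean coding share, with 3.77% of its TPM in replicate 1, the lowest value there, and 8.43% in replicate 2. Nearly all of the rest was in the retained-intron transcript Mrps26-201, at 4.85 and 2.28 TPM, against 0.19 and 0.21 TPM of the coding Mrps26-202. The lower count of Mrps26 in replicate 2 lay mostly in the retained-intron transcript, with 155.6 and 53.0 expected counts, against 29.4 and 24.0 of the coding one. In the read-based table the coding share was 15.5% and 29.4%.

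Mrpl32, which is matured by a protease of the inner membrane before it joins the large subunit, had 7.95% and 16.0% of TPM in its coding transcript. Its leading transcript was Mrpl32-201, annotated for nonsense-mediated decay, at 2.24 and 3.62 TPM. Mrps16 had 9.58% and 19.5% in its coding transcript, and the noncoding Mrps16-202 led with 1.51 and 0.91 TPM. The read-based table gave 6.73% and 12.7% for Mrpl32 and 6.24% and 11.4% for Mrps16. For both genes the tables and libraries gave the same picture, with under 20% in coding transcripts.

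Mrps9, among the highest genes of the small subunit, had 18.6% and 12.2% of TPM in coding transcripts and was led by the retained-intron transcript Mrps9-205 (3.40 and 4.41 TPM). Its level as a gene of 10.03 and 12.3 TPM therefore contained 1.87 and 1.51 TPM of the coding Mrps9-201. Mrpl57 had 16.5% and 5.52% by TPM, the lowest of replicate 2, led by the retained-intron Mrpl57-202. By expected counts the coding share of Mrpl57 was 64.4% and 34.1%, since TPM weights a short transcript more per count. Mrps14 had 24.3% and 23.6%, led by Mrps14-201 of the nonsense-mediated decay class, but the read-based table gave 44.5% and 73.4%.

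Mrpl24, the highest gene, also had much of its signal outside coding transcripts. Its coding share was 65.7% and 52.4%, and the retained-intron transcript Mrpl24-206 was at 13.3 and 22.9 TPM. In replicate 2 that transcript led, and in replicate 1 the coding Mrpl24-203 led with 14.5 TPM. Mrpl52 (73.0% and 77.5%) and Mrps21 (98.9% and 100%) were mostly coding. The tables hold annotated transcripts only, so unspliced RNA and finished retained-intron transcripts cannot be told apart.

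**Figure D5:**
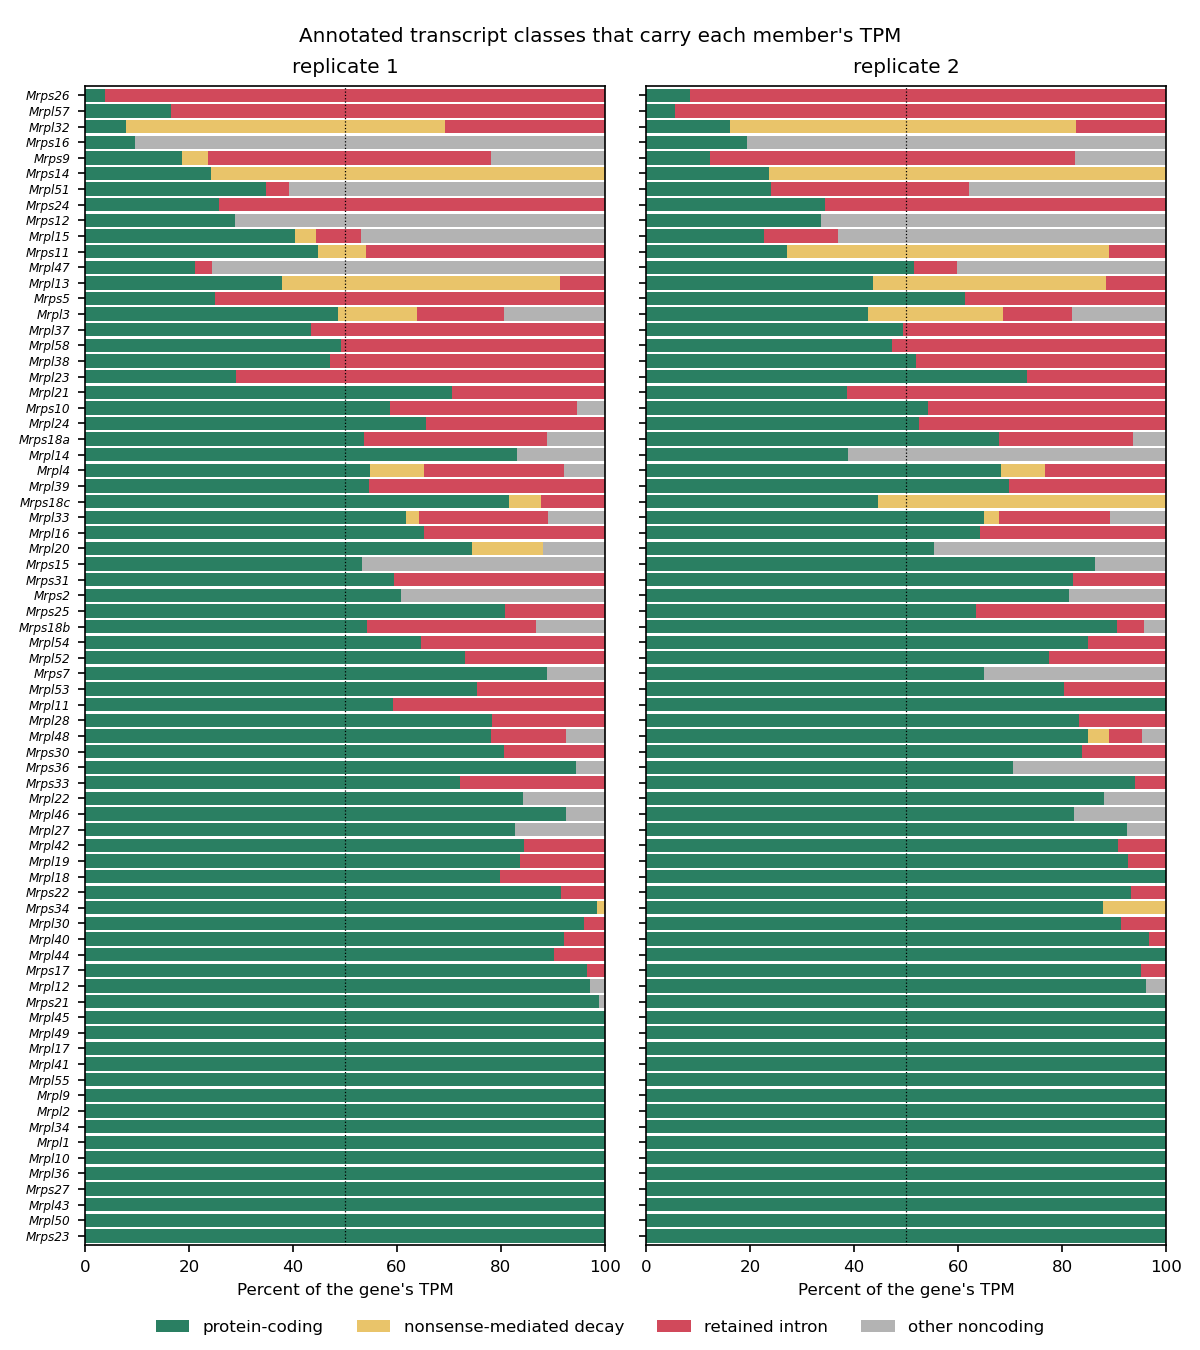
Percent of each gene's TPM (horizontal axis) in protein-coding, nonsense-mediated decay, retained-intron and other noncoding transcripts, for the 74 genes at 1 TPM or more in both libraries, ordered by mean coding share. Mrps26, Mrpl57, Mrpl32, Mrps16, Mrps9 and Mrps14 form the upper end, with the lowest mean coding shares.

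The choice of leading transcript depended on the table for a part of the genes. Of the genes with several transcripts and at least 1 TPM, 53 of 72 in replicate 1 and 54 of 74 in replicate 2 had the same leading transcript in the alignment-based table, which gave all other values, and in the read-based table. In 42 of 72 it was the same in both libraries and both tables. Of the 15 genes with under 50% in coding transcripts in both libraries, 10 were under 50% in both tables as well. Mrpl51 and Mrps24 were not, with 83.1% to 89.0% and 70.2% to 72.1% in the read-based table.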

How the data were processed

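Ribosomal RNA-depleted nucleoplasmic RNA of 2 libraries was quantified by the submitters on assembly mm10 with GENCODE M21, per the file descriptions deposited with the samples. The deposited tables give expected counts (estimated counts, not always whole), TPM and FPKM per gene and transcript from transcriptome alignments, the percent of a gene's TPM in each transcript, and, in a read-based transcript table, estimated counts and TPM. The names and versions of the tools and the use of strand were not given in the sources used here. Of the deposited tables, credibility bounds were not used in the text.

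Expected counts of genes were rounded for scaling with TMM factors of edgeR 4.0.16 in R 4.3.3 (0.997 and 1.00), and log2 ratios used a prior count of 0.5. Counting intervals are exact Clopper-Pearson intervals at 95%, and intervals and floors cover counting error only. Genes were described at a mean count of 10 or more, and fold calls at 100 or more. Subunit levels used log2(TPM + 0.1). The ratio and interval calculation was tested on simulated data. Tried instead were scaling by DESeq2 1.42.0 size factors or by library size, other filters and pseudocounts, FPKM, read-based values, and 1 library at a time. Python 3.11.15 with pandas 2.3.3 and scipy 1.17.1 was used.

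The named members were the 8 highest and 8 lowest by mean TPM, the 5 most raised and 5 most lowered ratios among members with 100 or more counts on average, the 6 lowest coding shares, members below 1 TPM in both libraries, and Mrps18a, Mrps18b, Mrps18c, Mrpl12, Mrpl58, Mrps30 and Mrps36, with the 2 highest genes of each comparison list. Other genes were named after their values were seen. The members and lists were chosen with earlier results of these data known. Of the 78 genes, 32 overlap another gene with a mean count of 10 or more, 28 of them on the opposite strand. The sequence of 1 promoter is not reported here.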

Additional observations from a re-analysis of the deposited data

How the results depend on the processing

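With 2 libraries of 1 group there is no test, and no paired analysis was possible because the design has a single group. Of 51 settings tried over the described results, 37 left the value close to the main one. Close means within the spread between libraries, within 1.5 times for a count, or within 0.1 for a log2 ratio. Some of the 37 were fixed in advance, so their number is not a measure of robustness. Leaving out 1 replicate cannot exceed the spread for the subunit difference or the coding share. Using no filter did not change the set behind the median ratio, since all 78 genes passed the filter. The median level moved from 3.65 TPM to 2.52 in the read-based table, 5.30 in FPKM and 18.02 when rescaled over nuclear protein-coding genes, which hold 18.3% and 21.9% of all TPM, and leaving out a replicate gave 3.15 to 4.07. The large minus small difference moved from 0.18 to 0.0205 among genes that reached 1 TPM in both libraries and to -0.10 without overlapping genes. The median ratio moved from 0.08 to 0.36 with TPM. Of genes beyond 2-fold, 2 became 6 at a mean count of 10 or more or with no filter, and 1 with read-based counts, where Mrps26 was lost. The median coding share moved from 79.5% to 68.4% in the read-based table and 65.0% among genes at 5 TPM or more. Genes whose tables named the same leading transcript within each of the 2 libraries fell from 48 to 5 at 10 TPM or more, where fewer genes were counted. That transcript could differ between the libraries. NRF1 matches fell from 22 genes to 8 with CATGCGC and 8 with GCATGCGC. Of the 32 named members, the mean level moved for 22 in the read-based table and for 27 in FPKM. Their log2 ratio moved for 26 with TPM, 18 with read-based counts and 0 with DESeq2 size factors or library size. The cause was not tested for the other moves. A ratio could count as reversed only if it lay beyond 2-fold, as those of Mrpl50, Mrps26, Mrps11 and Mrps28 did. None of these reversed. Among all 32 named members, 6 ratios changed sign with TPM, 3 with read-based counts and 1 with library size.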

Other observations

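Genes of the factors whose motifs were searched were themselves expressed. The list of 8 regulators of nuclear genes for mitochondrial proteins had a median of 5.95 TPM in replicate 1 and 7.51 in replicate 2, and 7 of the 8 reached 1 TPM in both libraries. Esrra, a nuclear receptor that acts with PGC1 coactivators, was at 15.6 and 14.99 TPM, and the coactivator Pprc1 at 10.5 and 10.6 TPM. Nrf1 was at 7.08 and 7.29 TPM, and Gabpa, the DNA-binding subunit of GABP, at 5.36 and 7.72 TPM. The median log2 ratio of replicate 2 over replicate 1 was 0.01 over the 7 regulators with a mean count of 10 or more. No activity of a factor was measured.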
